A study of Homo sapiens with 2 samples.

Results

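WNT pathway genes were examined in the hepatoma cell line PLC/PRF/5, also called PLC8024, with and without a knockout of MAEL, a cancer/testis gene that is active mainly in the testis in normal tissue. Of the 58735 genes listed in the deposited table, 55 protein-coding genes were taken by name and not by value. They were 19 WNT ligands, 10 Frizzled (FZD) receptors and 26 co-receptors, regulators, transcription factors and target genes of beta-catenin. RNA was compared between 1 library of wild-type cells, called MAEL WT, and 1 library of cells carrying a CRISPR/Cas9 knockout, called MAEL KO. Both were cultures of the same line without other treatment. Per the study's methods, knockout cells were sorted after plasmid transfection and grown from single clones, so an effect of the knockout and a property of a clone cannot be told apart. With 1 library per condition no difference below has a replicate check, and no test between conditions was possible.

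In canonical WNT signalling, a secreted WNT ligand binds a Frizzled receptor together with the co-receptor LRP5 or LRP6. Without the ligand, a complex built on APC and AXIN marks beta-catenin for degradation, and with it beta-catenin accumulates and switches on genes through the TCF/LEF factors. Several of those genes, among them AXIN2, RNF43, ZNRF3, NKD1, NOTUM and DKK1, damp the pathway in turn. In the liver, this pathway sets the gene programme of hepatocytes near the central vein, such as glutamine synthetase (GLUL), and it is often active in liver cancer.

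Total counts were 19904136 in MAEL WT and 20833332 in MAEL KO, and the floor of 3 counts was equal to 0.151 and 0.144 CPM (counts scaled to a common library total). MAEL itself had 1 and 0 counts, so the labels could not be checked by the targeted gene. The paper describes PLC8024 as its line with the highest MAEL expression and shows the knockout by Western blot, which measures protein. Why the RNA count in MAEL WT is this low was not tested. All 8 hepatocyte markers on a fixed list were above 3 counts in both libraries, with a summed level of 9667 CPM in MAEL WT and 22060 CPM in MAEL KO. The summed levels were 13.7 and 8.50 CPM for 5 fibroblast or stellate cell markers, 17.8 and 19.5 CPM for 4 endothelial markers, and 0.703 and 0.48 CPM for 5 immune markers, of which CD3E and MS4A1 were at 0. The part of these differences in the results below was not tested.

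Of the 55 genes, 41 had at least 10 counts in at least 1 library and were given a log2 fold change, with MAEL KO over MAEL WT, from counts scaled by TMM factors with 1 added. Of these, 21 lay above 0 and 20 below, with a median log2 fold change of 0.01. When the libraries were scaled by total counts instead, 14 lay above and 27 below with a median of -0.26, and the median of all genes moved from -0.04 to -0.31. Counting intervals lay above 0 for 17 genes, below 0 for 13 and held 0 for 11 with TMM factors, against 7, 21 and 13 with total counts. With TMM factors the median was -0.04 over all 17887 genes that passed the same filter and 0.02 over the 13700 protein-coding ones. Of the latter, 51.0% lay above 0 and 49.0% below. Their intervals lay above 0 for 5482 genes, below 0 for 4919 and held 0 for 3299. The splits of the 41 genes with TMM factors are near these shares. Past a log2 fold change of 2, the threshold of the study's methods, 1 of the 41 was higher in MAEL KO (SFRP5) and 4 were lower (WNT4, DKK1, NOTUM and WNT11). The background was 2.16% higher and 5.64% lower over all genes, and 1.96% higher and 4.93% lower over protein-coding genes. With total counts SFRP5 was below 2, and 0 were higher and 4 lower, beside 269 higher and 1309 lower of all 17887 genes. Past a log2 fold change of 1, 3 were higher and 7 lower with TMM factors, beside 9.41% and 13.5% of protein-coding genes. With total counts 2 were higher and 9 lower past 1, for which no background was computed.

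The differences were unevenly spread over the range of expression. All 5 genes past 2 had at most 9 counts in their lower library, and they were among 8 genes that entered through 1 library only. Of the 28 genes with at least 100 counts in 1 library, 0 passed 2. The background was 3.74% of the 11144 protein-coding genes with that depth, a share so small that 0 of 28 is near it. The median of the 28 was 0.08. A gene that enters through 1 library alone must have more counts there, by however little. The counts above thus describe these libraries and are no support for a change.

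**Figure D1:**
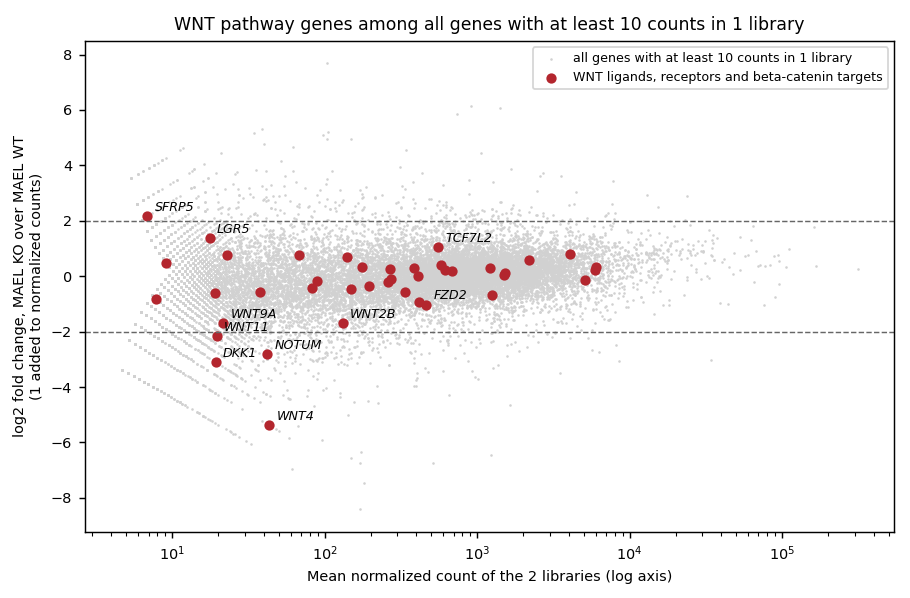
Log2 fold change, MAEL KO over MAEL WT (vertical axis), against the mean normalized count of the libraries (horizontal log axis), in grey for all 17887 genes with at least 10 counts in 1 library and in red for the 41 WNT pathway genes among them; dashed lines mark 2 and -2. The 5 red points outside the dashed lines lie at the left, among genes with few counts, and the well-counted genes lie between the lines.

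The most abundant WNT ligand, WNT3, was at a similar level in both libraries, while WNT4, WNT2B, WNT11 and WNT9A were lower in MAEL KO. Of the 19 ligands, 9 had at least 10 counts in 1 library, and 7 of these were below 0, beside 49.0% of protein-coding genes. Intervals lay below 0 for 4, above 0 for 1 and held 0 for 4, beside 4919, 5482 and 3299 of the 13700 protein-coding genes. The median log2 fold change was -0.82 over the 9, -0.41 over those with at least 100 counts and 0 over all 19, of which 6 had no counts. Past 1, 4 were lower and 0 were higher, beside 13.5% and 9.41% of protein-coding genes. With at least 100 counts 1 was lower, and with no filter 6 of the 19 were lower and 2 higher. WNT4, WNT11, WNT9A and WNT8B passed the filter through MAEL WT alone, and no ligand did so through MAEL KO alone. The sign count, the median of the 9 and the count past 1 are therefore no support for a shift. Levels of different genes are compared by deposited FPKM values, which are scaled to gene length.

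WNT3, a canonical ligand needed to form the embryonic axis, had 609 counts in MAEL WT and 620 in MAEL KO, or 6.42 and 7.55 FPKM. Its log2 fold change was 0.24 (95% counting interval 0.07 to 0.40), and -0.04 when the libraries were scaled by total counts. Each interval was derived by the exact Clopper-Pearson method from the split of a gene's counts between the libraries. It covers counting error only, since the reads carry no molecular identifiers and copies of 1 molecule are counted separately. WNT3 made up 54.5% of the summed ligand FPKM in MAEL WT and 75.2% in MAEL KO. The summed level of the 19 ligands went from 11.78 to 10.04 FPKM, and without WNT3, left out after its values were seen, from 5.36 to 2.49 FPKM. WNT10B, which acts on beta-catenin in fat and bone precursor cells, came second with 102 and 66 counts. Its level was 1.77 FPKM in MAEL WT and 1.32 FPKM in MAEL KO. The interval of its log2 fold change, -0.89 to 0.04, held 0, but with total counts it lay below 0, at -1.16 to -0.23.

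WNT4 showed the largest difference of all 55 genes. This ligand, known for its role in kidney and female reproductive tract development, had 92 counts in MAEL WT and 1 in MAEL KO, or 0.929 and 0.0117 FPKM. The ratio of the scaled counts was 79.5-fold lower in MAEL KO, with a counting interval of 13.9-fold to 3175-fold, which a single count leaves wide. Its log2 fold change with 1 added was -5.38. A gene on the opposite strand, AL445253.1, shares 1.21% of its exonic bases and had 10 and 0 counts.

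WNT2B, WNT11 and WNT9A were lower in MAEL KO as well, with intervals that did not hold 0. WNT2B, a canonical ligand of the gut stroma, had 215 and 57 counts, a log2 fold change of -1.69 (95% counting interval -2.15 to -1.28). Of its exonic bases, 21.2% overlap ST7L on the opposite strand, which had 237 and 183 counts. WNT11, a ligand of the non-canonical branch that guides cell movements, had 35 and 6 counts, a log2 fold change of -2.17 (95% counting interval -3.87 to -1.07), which was -1.71 with 5 added. WNT9A, known from joint formation, had 36 and 9 counts, a log2 fold change of -1.69 (95% counting interval -3.03 to -0.71). Each of the 3 was thus below 1 FPKM in both libraries.

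The remaining ligands were too sparsely counted to separate the libraries. WNT5B had 25 and 14 counts, WNT8B 11 and 5, and WNT7B 18 and 27, and the interval of each held 0. Among the 10 ligands below the filter, WNT9B had 7 and 2 counts, WNT10A 2 and 0, WNT3A 0 and 2, and WNT16 0 and 1. WNT1, WNT2, WNT5A, WNT6, WNT7A and WNT8A had 0 counts in both libraries. A count of 0 allows up to 3 counts, which is between 0.0185 FPKM for WNT5A and 0.102 FPKM for WNT1 in MAEL WT, and between 0.0214 and 0.118 FPKM in MAEL KO. WNT5A, the best known non-canonical ligand, was thus below detection at this depth in both.

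**Figure D2:**
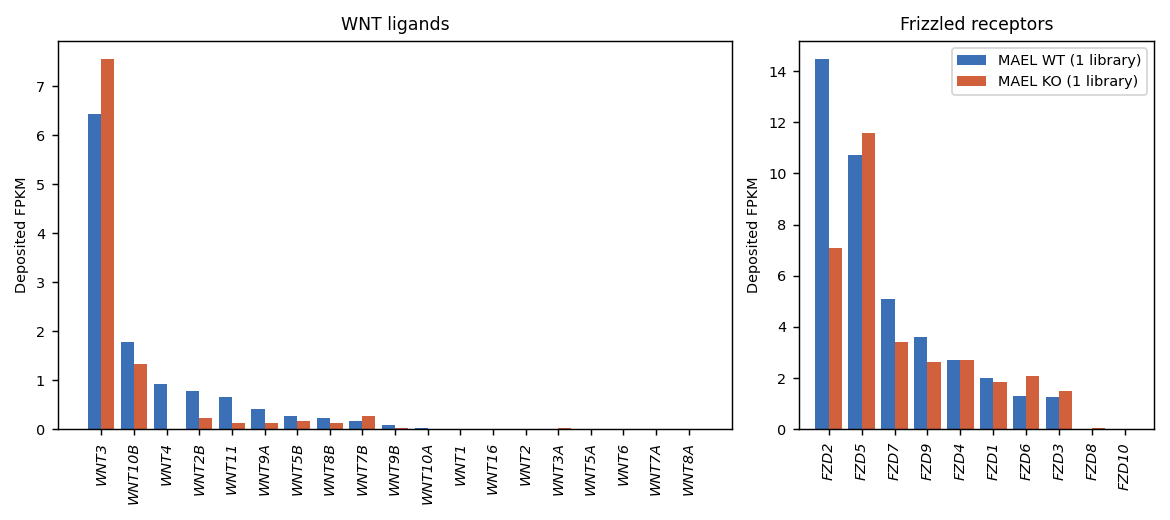
Deposited FPKM (vertical axis, from 0) of the 19 WNT ligands and the 10 Frizzled receptors, with 1 bar for each library and no error bars, since each bar is a single library. WNT3 is the tallest ligand in both libraries, and FZD2 and FZD5 are the tallest receptors, with FZD2 first in MAEL WT and FZD5 first in MAEL KO.

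Of the genes that prepare and export WNT ligands, PORCN was lower in MAEL KO and WLS was near 0 in both libraries. PORCN, the acyltransferase that attaches the lipid every WNT ligand needs to bind Frizzled, had 584 counts in MAEL WT and 263 in MAEL KO, or 8.87 and 4.61 FPKM. This is a log2 fold change of -0.94 (95% counting interval -1.16 to -0.73), and -1.21 with total counts. WLS (Wntless), the carrier that takes lipidated WNT ligands to the cell surface, had 1 count in MAEL WT and 3 in MAEL KO. Both counts are at or under the floor, which corresponds for this gene to 0.0306 and 0.0355 FPKM, so no fold was computed.

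The Frizzled receptors formed a broad set of 8 genes with at least 10 counts, and the abundance of FZD2 was the main difference among them. Of the 8, 4 were above and 4 below 0, beside 51.0% and 49.0% of protein-coding genes, with a median log2 fold change of -0.05. FZD2 had 668 counts in MAEL WT and 284 in MAEL KO, or 14.5 and 7.09 FPKM. This is a log2 fold change of -1.02 (95% counting interval -1.23 to -0.82), the only one of a receptor past 1. FZD2 went from 35.2% to 21.5% of the summed receptor FPKM. FZD5, with 1570 and 1473 counts, went from 26.0% to 35.2% and was the most abundant receptor in MAEL KO. On the log2 scale the difference was 0.12 (95% counting interval 0.01 to 0.22), or -0.16 with total counts.

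FZD7, a receptor of stem cells that is closely related to FZD2, had 429 and 250 counts, a log2 fold change of -0.57 (95% counting interval -0.80 to -0.34). FZD9 went from 185 to 116 counts and was at -0.46 on that scale (95% counting interval -0.81 to -0.12). FZD6, a receptor of planar cell polarity, lay on the other side with 115 and 162 counts and a log2 fold change of 0.70 (95% counting interval 0.35 to 1.06). FZD3, its close relative, had 376 and 395 counts and a log2 fold change of 0.28. FZD1, with 305 and 245 counts, and FZD4, with 436 and 380, had intervals that held 0 with TMM factors and lay below 0 with total counts. FZD4 shares 18.9% of its exonic bases with PRSS23 on the opposite strand, which had 1171 and 224 counts. FZD8 had 2 and 3 counts and FZD10 had 1 count in each library. The summed receptor level went from 41.1 to 32.9 FPKM, and without FZD2, left out after its values were seen, from 26.7 to 25.9 FPKM.

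Among the co-receptors and the R-spondin axis, LRP5 and LGR4 were the most abundant of all 55 genes in both libraries and differed little between them with TMM factors. LRP5 had 5716 and 4476 counts, or 42.4 and 38.3 FPKM, a log2 fold change of -0.14 (95% counting interval -0.20 to -0.09). With total counts it was -0.42 (95% counting interval -0.48 to -0.36). LRP6, the partner gene of LRP5, had 1866 and 2428 counts, or 8.25 and 12.4 FPKM. This is a log2 fold change of 0.59 (95% counting interval 0.50 to 0.68), and 0.31 with total counts. LRP5 was thus the more abundant co-receptor per length in both libraries, and the gap was smaller in MAEL KO. LGR4, the R-spondin receptor found in most epithelia, had 5867 and 5960 counts, or 42.3 and 49.6 FPKM, a log2 fold change of 0.23 that became -0.04 with total counts.

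LGR5, the R-spondin receptor that marks stem cells of the gut and is a beta-catenin target, had 10 counts in MAEL WT and 24 in MAEL KO. LGR5 thus had a log2 fold change of 1.38 with a counting interval of 0.36 to 2.70, at 0.0871 and 0.241 FPKM. The ubiquitin ligases ZNRF3 and RNF43, which remove Frizzled from the cell surface, lay on opposite sides. ZNRF3 had 528 and 611 counts, a log2 fold change of 0.42 (95% counting interval 0.25 to 0.59). RNF43 had 234 and 159 counts, a log2 fold change of -0.35 (95% counting interval -0.65 to -0.05). Of the exonic bases of RNF43, 59.5% lie in other genes on the same strand and 20.3% in genes on the opposite strand. Among these genes is SUPT4H1, which had 1 and 0 counts, and how reads in shared bases were assigned is not given in the sources used here.

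Beta-catenin and the genes of its destruction complex differed little, with a median log2 fold change of 0.29 over 5 genes and none past 1. With TMM factors 4 of the 5 intervals lay above 0 and that of AXIN1 held 0. Of the 13700 protein-coding genes, 5482 had an interval above 0 and 3299 held 0. With total counts the median was 0.01, only the interval of CTNNB1 lay above 0, that of AXIN1 lay below it, and those of APC, AXIN2 and GSK3B held 0. CTNNB1, which encodes beta-catenin, had 5725 and 6228 counts, or 21.9 and 27.5 FPKM, a log2 fold change of 0.33 (95% counting interval 0.28 to 0.38). GSK3B, the kinase that phosphorylates beta-catenin, had 1178 and 1243 counts and a log2 fold change of 0.29. The scaffold AXIN1 had 1571 and 1407 counts and APC 692 and 677, with log2 fold changes of 0.05 and 0.18. AXIN2, the inducible scaffold and a widely used readout of beta-catenin activity, had 54 and 80 counts. Its log2 fold change was 0.77 (95% counting interval 0.26 to 1.30), and 25.2% of its exonic bases are shared with AC004805.1, which had 1 and 0 counts.

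The TCF/LEF factors differed in their make-up between the libraries. TCF7L2, a TCF factor of gut and liver, had 390 counts in MAEL WT and 694 in MAEL KO, or 2.65 and 5.43 FPKM. On the log2 scale this was 1.04 (95% counting interval 0.86 to 1.22), and it was 0.99 with upper-quartile factors and 0.76 with total counts, below 1 in both. TCF7L2 made up 38.4% of the summed FPKM of the 4 factors in MAEL WT and 57.9% in MAEL KO. LEF1, a factor that is itself a target of the pathway, had 300 and 224 counts and a log2 fold change of -0.21, with an interval that held 0. TCF7, a factor best known from T cells, had 261 and 270 counts, a log2 fold change of 0.26 that was -0.02 with total counts. TCF7L1, mostly a repressor, had 49 and 28 counts, and its interval held 0 with TMM factors and lay below 0 with total counts.

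**Figure D3:**
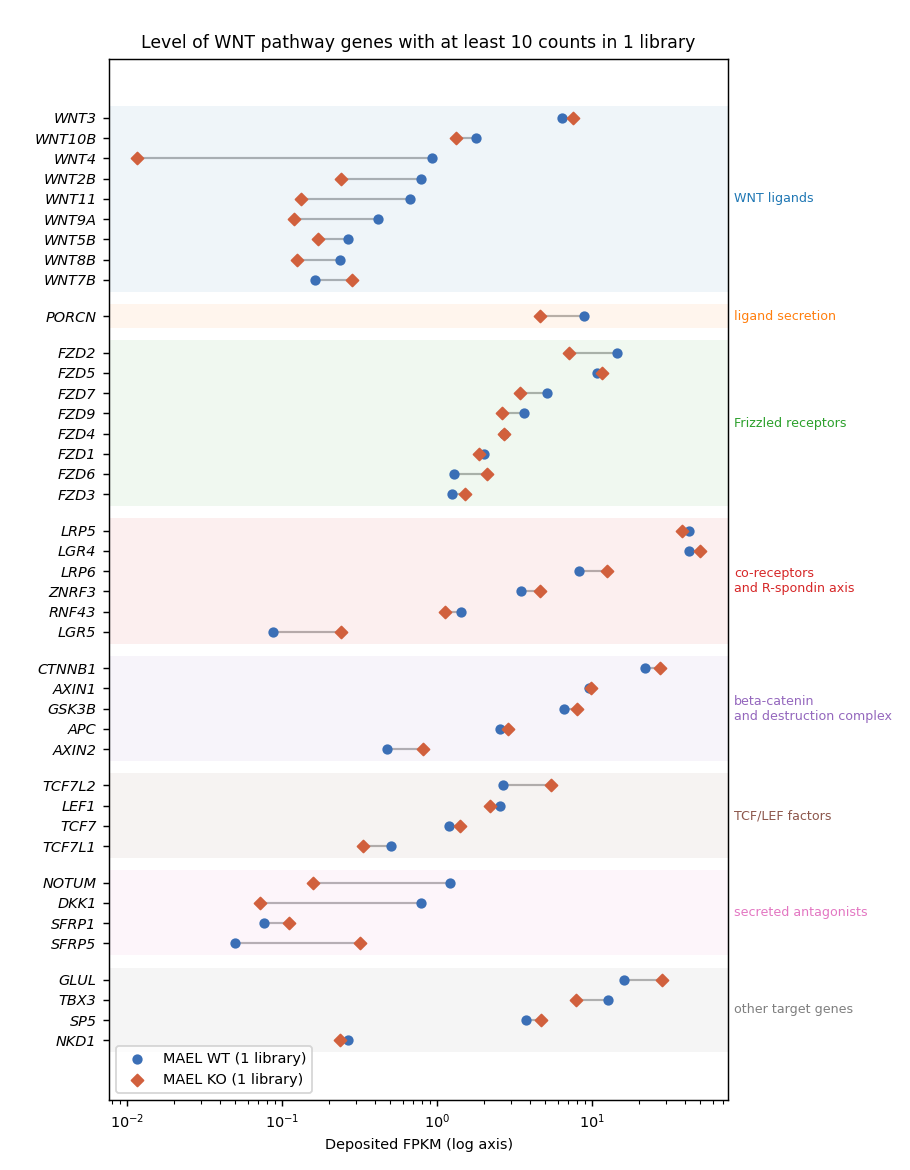
Deposited FPKM (horizontal log axis) of the 41 WNT pathway genes with at least 10 counts in 1 library, with a circle for MAEL WT and a diamond for MAEL KO joined by a line, ordered by role and by level in MAEL WT. The pairs of LRP5, LGR4 and CTNNB1 lie close together at the right, and the long lines belong to WNT4, NOTUM, DKK1, SFRP5 and WNT11, which lie further left.

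Of the secreted antagonists, DKK1 and NOTUM were lower and SFRP5 was higher in MAEL KO. DKK1 and NOTUM passed the filter through MAEL WT alone, and SFRP5 and SFRP1 through MAEL KO alone. The direction of these genes was thus set by the filter and is no support for a change. DKK1, which blocks the co-receptors and is induced by beta-catenin, had 38 counts in MAEL WT and 3 in MAEL KO, or 0.788 and 0.0717 FPKM. It was 10.95-fold lower by the ratio of scaled counts, with a counting interval of 3.47-fold to 55.4-fold. NOTUM, the enzyme that strips the lipid from WNT ligands and is a liver target of beta-catenin, had 80 and 9 counts, or 1.21 and 0.157 FPKM. NOTUM had a log2 fold change of -2.82 (95% counting interval -4.12 to -1.95). SFRP5, a decoy receptor that holds WNT ligands away from Frizzled, had 2 and 11 counts and was 6.36-fold higher, with a counting interval of 1.39-fold to 59.1-fold. Its log2 fold change with 1 added was 2.17, and it was 1.95 with total counts and 1.30 with 5 added. The related SFRP1 had 8 and 10 counts, with an interval that held 0, and DKK4 had 1 and 4 counts.

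The 13 beta-catenin targets among the 55 genes did not move in 1 direction. Of the 12 with at least 10 counts, 6 were above and 6 below 0, beside 51.0% and 49.0% of protein-coding genes. Their median log2 fold change was 0.04, which was -0.23 with total counts. DKK1 and NOTUM passed the filter through MAEL WT alone, so their direction was set by the filter and is no support for a change. GLUL, the glutamine synthetase of pericentral hepatocytes, had 3179 and 4819 counts, or 16.1 and 28.1 FPKM, a log2 fold change of 0.81 (95% counting interval 0.75 to 0.88). TBX3, a transcription factor of liver progenitors and a target in liver tumours, lay on the other side. It had 1650 and 888 counts, or 12.7 and 7.87 FPKM, a log2 fold change of -0.68 (95% counting interval -0.80 to -0.56). SP5, a transcription factor that beta-catenin induces directly in many cell types, had 168 and 183 counts, a log2 fold change of 0.33 (95% counting interval 0.02 to 0.64). NKD1, a cytoplasmic inhibitor, had 102 and 78 counts, and its interval held 0. GLUL, AXIN2, LGR5, ZNRF3, SP5 and TCF7 had intervals above 0, and NOTUM, DKK1, TBX3 and RNF43 had intervals below 0. Of the 13700 protein-coding genes, 5482 had an interval above 0 and 4919 below it. With total counts only GLUL and LGR5 of the former stayed above 0, those of AXIN2, ZNRF3, SP5 and TCF7 held 0, and LEF1 and NKD1 joined those below it.

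**Figure D4:**
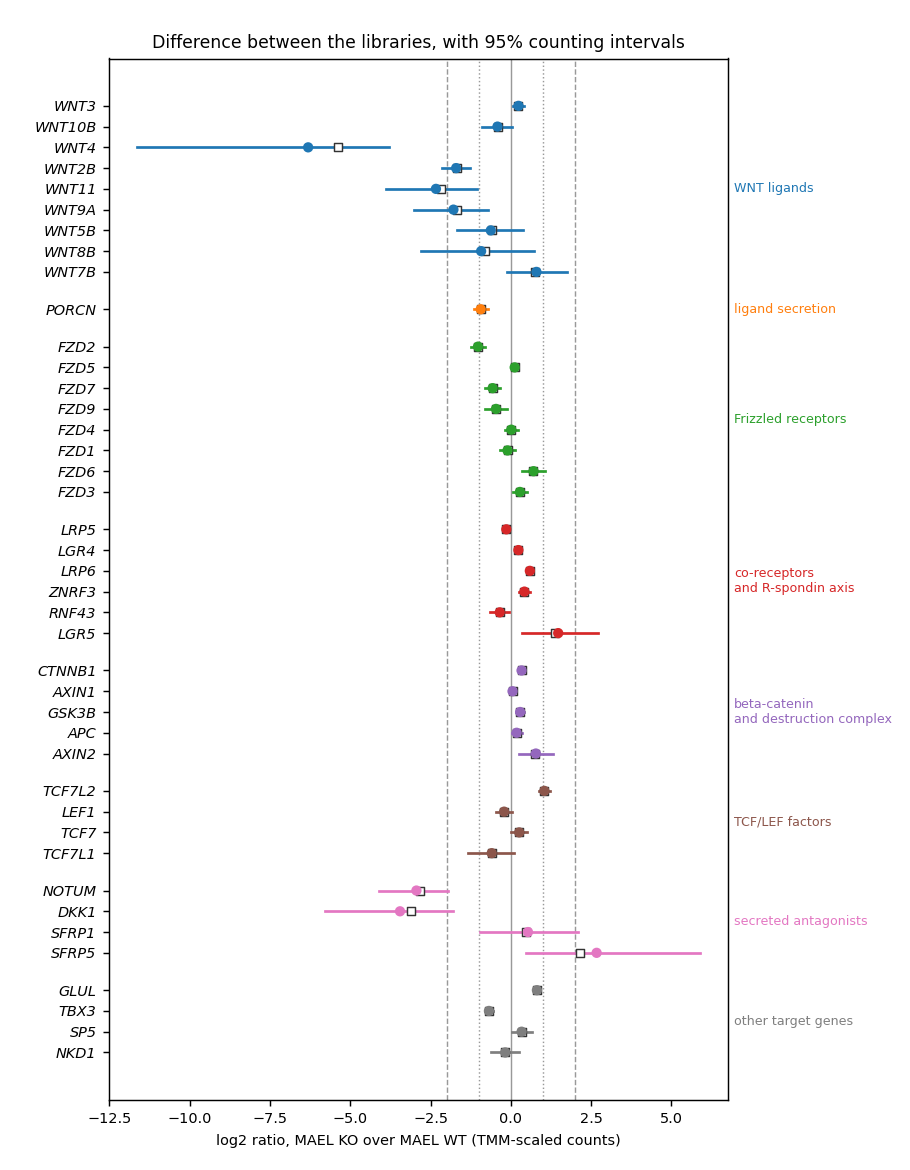
Log2 ratio of MAEL KO over MAEL WT (horizontal axis) for the 41 genes, as a filled circle from the TMM-scaled counts with its 95% counting interval as a line and as an open square with 1 added to the normalized counts; dotted lines mark 1 and -1 and dashed lines 2 and -2. Intervals are narrow for well-counted genes such as LRP5, LGR4 and CTNNB1 and wide for WNT4, DKK1, SFRP5 and other genes with few counts.

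TCF/LEF factors recognise short sequences around the letters CTTTGAT or CTTTGAA. These letters were looked for on both strands in the 250 bases before the RefSeq start of each gene (GRCh38.p14), for which 38 of the 55 genes had at least 1 window. They were found in the windows of SP5 and DKK1 and in none of the other 36 genes. Of all 35116 RefSeq windows, 5.94% held at least 1 match and 7 windows, or 0.0199%, held at least 3. SP5 had 3 matches, which begin 148, 109 and 84 bases before the start, and DKK1 had 1, which begins 95 bases before it. The windows are shown because these targets had different values, near-equal counts for SP5 and 38 against 3 for DKK1, and that of WNT4 because its difference was the largest. Capitals mark the matches, read 5′ to 3′ on the strand of the gene. The windows are chr2:170715087-170715336 on the plus strand for SP5, chr10:52314031-52314280 on the plus strand for DKK1 and chr1:22143098-22143347 on the minus strand for WNT4.
SP5: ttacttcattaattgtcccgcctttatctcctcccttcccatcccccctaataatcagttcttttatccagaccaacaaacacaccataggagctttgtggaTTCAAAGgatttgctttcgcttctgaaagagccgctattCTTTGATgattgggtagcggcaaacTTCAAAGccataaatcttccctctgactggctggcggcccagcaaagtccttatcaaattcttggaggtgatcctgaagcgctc
DKK1: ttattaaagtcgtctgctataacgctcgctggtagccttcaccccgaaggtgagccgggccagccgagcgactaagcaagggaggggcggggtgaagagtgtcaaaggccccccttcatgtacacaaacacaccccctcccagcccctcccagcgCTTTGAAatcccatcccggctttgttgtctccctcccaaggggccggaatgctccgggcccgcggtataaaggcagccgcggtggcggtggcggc
WNT4: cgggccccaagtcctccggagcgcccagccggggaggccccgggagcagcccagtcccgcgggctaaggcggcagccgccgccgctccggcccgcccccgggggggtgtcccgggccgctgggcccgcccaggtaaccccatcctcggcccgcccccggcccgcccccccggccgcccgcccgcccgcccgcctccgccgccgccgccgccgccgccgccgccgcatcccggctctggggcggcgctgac
A match is a description of the letters and not a measured binding site.

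Other pathway and liver zone genes, taken from lists by role, had a median log2 fold change of -0.17 over the 91 with at least 10 counts, with 5 higher and 6 lower past 2. Among the 91 are 8 periportal liver genes, which are no WNT pathway genes and account for 2 of the 5 higher. The background past 2 was 1.96% higher and 4.93% lower over protein-coding genes, and it applies to each list below as well. Among the genes past 2, RSPO4 and TLE4 passed the filter through MAEL WT alone, and PCK1 did so through MAEL KO alone. The direction of such genes is set by the filter, so their calls are no support for a change. The lists were written with earlier results of these data known. On the ligand side, 9 of 22 genes were counted, with 1 higher and 2 lower past 2. GPC3, a glypican of fetal liver and liver cancer that binds WNT ligands, had 3196 and 21285 counts, a log2 fold change of 2.95. DKK3, a divergent Dickkopf protein, had 713 and 152 counts, a log2 fold change of -2.01 (95% counting interval -2.28 to -1.76). RSPO4, a ligand of the LGR receptors, had 15 and 0 counts. Taken against 3 counts in MAEL KO it was 4.32-fold lower, and its counting interval ended at -1.63 on the log2 scale. RSPO1 and RSPO2 had 0 counts in both libraries.

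Of the non-canonical receptors and planar polarity genes, 12 of 15 were counted, with a median log2 fold change of -0.29. VANGL2, a core polarity protein, had 63 and 11 counts, a log2 fold change of -2.22, and was the only one past 2. CELSR1, a polarity cadherin, had 3129 and 1020 counts, a log2 fold change of -1.41 (95% counting interval -1.51 to -1.30). The highest of the list were VANGL1 at 0.41 and ROR1 at 0.27. All 25 cytoplasmic transducers were counted, with a median log2 fold change of -0.12 and 0 past 2 in either direction. FRAT2, which inhibits GSK3, was the highest at 1.09, followed by USP7 at 0.86, and NKD2, a relative of NKD1, was the lowest at -1.69, followed by CSNK1G1 at -0.68.

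Of the nuclear co-factors, 19 genes were counted, with a median log2 fold change of 0.06 that was -0.21 with total counts. The Groucho co-repressors of the TLE family differed among themselves. TLE4 had 38 and 4 counts, a log2 fold change of -2.78 (95% counting interval -4.99 to -1.56), and was the only co-factor past 2. TLE3 had 518 and 1025 counts, a log2 fold change of 1.19, and TLE2 had 944 and 410, at -0.99.

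Further beta-catenin targets and pericentral liver genes again lay on both sides. Of 23 genes, 18 were counted, with a median log2 fold change of -0.40, 2 higher and 2 lower past 2. The median was -0.68 with total counts and 0.11 over all 23 without the count filter, and only 1 was higher past 2 with total counts or upper-quartile factors. SLC1A2, a glutamate transporter of pericentral hepatocytes, had 78 and 331 counts, a log2 fold change of 2.28. BIRC5, which encodes the mitotic protein survivin, had 669 and 2341 counts, at 2.02. FOSL1, a subunit of the AP-1 factor, had 1320 and 254 counts, at -2.16, and the transcription factor TCF21 had 1050 and 204, at -2.15. TCF21 is not one of the TCF/LEF factors above, and whether it belongs among these targets was not tested. Periportal liver genes, which beta-catenin keeps low near the central vein, had a median log2 fold change of 1.72 over 8 counted genes of 12, and 7 of the 8 were above 0, beside 51.0% of protein-coding genes. Over all 12 the median was 0.90, with 2 lower past 1. Over those with at least 100 counts it was 1.26, with 1 higher past 2. SDS, a serine dehydratase, had 157 and 1507 counts, a log2 fold change of 3.46, and PCK1, an enzyme of gluconeogenesis, had 7 and 54 counts, at 2.98. CPS1, the first enzyme of the urea cycle, was the only one of the 8 counted genes below 0, at -0.27. The hepatocyte markers given above had a higher sum in the same library.

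**Figure D5:**
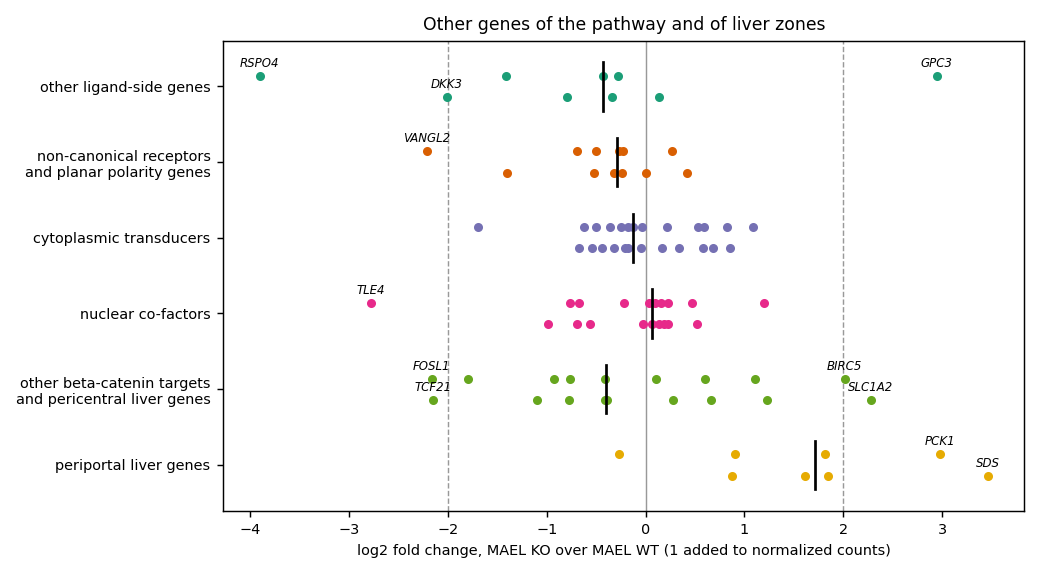
Log2 fold change, MAEL KO over MAEL WT (horizontal axis, 1 added to normalized counts) of the other pathway and liver zone genes with at least 10 counts in 1 library, with 1 point per gene, the list on the vertical axis and a black bar at each list's median. Medians of the first 5 lists lie between -0.43 and 0.06, and that of the periportal genes lies at 1.72.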

How the data were processed

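RNA sequencing of 1 MAEL WT and 1 MAEL KO library of PLC8024 cells was analysed. The authors deposited raw read counts per gene and FPKM values, with 58735 Ensembl genes. The submitters' processing notes name HISAT2 2.0.5, featureCounts 1.5.0-p3 and hg19, but the coordinates of all 55 genes equal those of GENCODE 29 on GRCh38. The deposited FPKM values rest on library sizes that are 0.99859 and 1.0014 times the TMM-scaled ones. Use of strand in counting is not given in the sources used here.

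Counts were scaled by TMM in edgeR 4.0.16 (R 4.3.3) and brought to a common library size, and 1 was added to both values before the log2 fold change. Genes under 10 counts in both libraries were left out. Genes at 1 to 3 counts in a library are given as a ratio with its interval, and those at 0 as a ratio taken against 3 counts. No p-value was computed, as each condition had a single library. Alternatives were DESeq2 1.42.0 size factors, upper-quartile factors, total counts, FPKM ratios, other added counts and other count filters. Intervals and figures were made in Python 3.11.15 with SciPy 1.17.1, pandas 2.3.3 and matplotlib 3.10.9. TLE5 is listed as AES in this annotation. The steps were tested on simulated data.

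The 55 genes and all lists were chosen with earlier results of these data known. Named are all 55 genes, and of each other list the genes past 2 and otherwise up to 2 at each end, to which further examples were added after their values were seen.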

Additional observations from a re-analysis of the deposited data

How the results depend on the processing

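With 1 library per condition no library could be left out, and no paired analysis was possible because each group has a single library. Total counts moved the median of all genes from -0.04 to -0.31, that of the 41 genes to -0.26 and that of the other lists together to -0.45, with 17 of their genes lower past 1. The signs of APC, AXIN1, FZD4, FZD5, LGR4, TCF7 and WNT3 changed with it, and that of FZD4 also with upper-quartile factors. The count of 1 gene higher past 2 became 0 with total counts, with 5 added, with at least 100 counts and with a mean of at least 10 counts, a filter chosen after seeing the data. With at least 100 counts, 0 genes were lower past 2, and past 1 there were 1 higher and 2 lower, while the other lists had 3 lower past 2 and 5 past 1. The other lists also had 3 lower past 2 with 5 added. With no filter, 7 of the 55 genes were higher past 1, and 17 of the other lists lower. These changes follow from fewer or more genes passing each filter, or from the scaling and the added count themselves. Scaled by total counts, summed ligand levels were 12.9 in MAEL WT and 9.13 in MAEL KO as counts per kilobase scaled to a common library total, and receptor levels 45.2 and 29.98. Of 246 values of the 41 genes, 21 left their counting interval, all with total counts, and none past 1 changed sign.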

Other observations

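WNT genes often lie in conserved pairs, and 4 pairs of the 19 ligands are less than 100 kb apart in the deposited GRCh38 coordinates. In each pair, at most 1 gene was above 10 counts. WNT3 and WNT9B on chromosome 17 point away from each other with 46 bases between them, and had 609 and 7 counts in MAEL WT and 620 and 2 in MAEL KO. WNT10B and WNT1 on chromosome 12, 6.69 kb apart, had 102 and 0 counts in MAEL WT and 66 and 0 in MAEL KO. WNT9A and WNT3A on chromosome 1, 59.2 kb apart, had 36 and 0 counts in MAEL WT and 9 and 2 in MAEL KO. In the pair of WNT6 and WNT10A on chromosome 2, 6.13 kb apart, WNT6 had 0 counts in both libraries and WNT10A had 2 and 0.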
